A study of Mus musculus with 24 samples.

Results

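Genes that fat cells express, 10 of the 54532 genes listed in the tables, were followed in 4 tissues (muscle, heart, stomach and tongue) of Trex1-KO mice that were left untreated or were given SN-011. The members were taken by name, with no rule on their values but with earlier results of these data known. They are Adipoq, Lep, Retn, Cfd, Plin1, Cidec, Ucp1, Fabp4, Lpl and Pnpla2, and each matched 1 gene identifier. All mice lacked Trex1, a nuclease that removes cytosolic DNA and whose loss activates the cGAS-STING pathway, and SN-011 is an antagonist of STING. The 24 samples form 8 groups of 3, a control group and an SN-011 group in each tissue, and each sample is a library of polyadenylated RNA from a whole tissue. The labels give 5 mg/kg SN-011, 3 times per week for 4 weeks, and call the controls untreated, whereas the study's methods describe a daily intraperitoneal schedule of shorter length at another dose with vehicle-injected controls and mice of about a month of age. The labels give no strain, age or sex and do not say which tissues came from the same mouse. In such bulk samples fewer fat cells and less RNA per cell cannot be told apart, and with no statement on how the 3 samples of a group were drawn, the p-values measure only the spread between these samples.

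White adipocytes store triglyceride in a large lipid droplet and secrete hormones. Plin1 coats the droplet and restrains lipolysis, Cidec fuses droplets, and Pnpla2 (adipose triglyceride lipase) makes the first cut in triglyceride. Adipoq (adiponectin), Lep (leptin), Retn (resistin) and Cfd (adipsin, complement factor D) are secreted. Ucp1 uncouples respiration in brown and beige adipocytes and makes heat. Lpl releases fatty acids from circulating lipoproteins and Fabp4 carries fatty acids inside the cell. Lpl and Pnpla2 are also made by heart and skeletal muscle, and Fabp4 also by capillary endothelium and macrophages, so these 3 genes do not mark fat alone. Many adipocyte promoters are bound by C/EBP proteins and PPARG during fat cell formation.

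The members lie on 6 chromosomes in GENCODE M21 on GRCm38, all are protein-coding and none overlaps another gene. Adipoq lies at chr16:23146536-23158028 on the plus strand, Lep at chr6:29060220-29073877 (plus) and Retn at chr8:3655770-3660110 (plus). Cfd lies at chr10:79890853-79892655 (plus), Plin1 at chr7:79720218-79732903 (minus) and Cidec at chr6:113424634-113435760 (minus). Ucp1 lies at chr8:83290352-83298452 (plus), Fabp4 at chr3:10204088-10208576 (minus), Lpl at chr8:68880491-68907448 (plus) and Pnpla2 at chr7:141455198-141460743 (plus). Since several members rose and fell together from sample to sample, the 250 bases upstream of the RefSeq start (GRCm38.p6) were searched on both strands for the C/EBP core TTNNGCAA, for a DR1 element (2 copies of AGGNCA with any base between them) and for TATAAA. The windows of 8 members were listed, and Fabp4 and Lpl had no entry. The C/EBP core was found in Plin1, in Lep and in 1 of 2 starts of Cidec, against 9.56% of all 32851 windows, and neither a DR1 element (0.338% of windows) nor TATAAA (12.4%) was found in any of the members searched. A match is a description of letters and no sign of binding. The windows of Plin1 (chr7:79732777-79733026, minus strand), Lep (chr6:29059971-29060220, plus strand) and Adipoq (chr16:23146286-23146535, plus strand) are shown 5′ to 3′ because the first pair hold the core and the last, the gene the other members are compared with, does not. Capitals mark the core or its reverse complement.
Plin1: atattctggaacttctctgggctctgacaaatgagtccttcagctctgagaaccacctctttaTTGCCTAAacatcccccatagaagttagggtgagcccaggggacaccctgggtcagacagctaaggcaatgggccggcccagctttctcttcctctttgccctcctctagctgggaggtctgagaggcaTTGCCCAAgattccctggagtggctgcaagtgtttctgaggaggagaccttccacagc
Lep: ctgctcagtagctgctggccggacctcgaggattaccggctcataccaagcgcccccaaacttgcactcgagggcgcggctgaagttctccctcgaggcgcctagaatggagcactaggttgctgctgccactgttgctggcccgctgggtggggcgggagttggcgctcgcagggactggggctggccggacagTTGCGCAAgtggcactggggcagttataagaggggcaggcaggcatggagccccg
Adipoq: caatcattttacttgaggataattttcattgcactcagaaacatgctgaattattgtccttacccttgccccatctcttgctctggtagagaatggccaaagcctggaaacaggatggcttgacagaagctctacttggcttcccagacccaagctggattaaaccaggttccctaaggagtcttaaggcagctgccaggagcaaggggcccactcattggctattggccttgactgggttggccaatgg

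The libraries held 14253416 to 18443329 counts, so that 3 counts, the most that a listed 0 allows, came to between 0.163 and 0.210 CPM (counts scaled to a common library size). Trex1 had 0 counts in all 24 libraries. Each tissue held its defining markers, with cardiomyocyte markers summing to 25774 to 42939 CPM in heart, skeletal muscle markers to 198480 to 246220 CPM in muscle, gastric markers to 16841 to 132010 CPM in stomach and tongue epithelium markers to 8323 to 52309 CPM in tongue. The library Muscle SN-011 2 held counts on 11546 genes against at least 19798 in every other library, and it also listed Cebpa, a regulator of fat cell formation, at 0 where the other muscle libraries held between 19.9 and 98.8 CPM. Control 1 of every tissue had 3060 to 13811 Xist counts, against at most 20 in every other library, so each control group mixes libraries with and without Xist and no SN-011 group does. Markers of gastric epithelium summed to 1203 CPM in control 2 and 510 CPM in control 3 of muscle, and to 2583 and 261 CPM in those of heart and 2631 and 2101 CPM in those of tongue. The same sum was at most 65.8 CPM in every control 1 and every SN-011 library of these 3 tissues. Its part in the results on the members was not tested.

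Adipoq, Plin1, Cidec, Retn, Cfd, Lep and Ucp1 are known chiefly from adipocytes and are called the 7 restricted members here. Attached fat was measured as the sum of the first 6, leaving out Ucp1, in CPM after TMM scaling of all 24 libraries together. Muscle held the most and tongue the least, and samples of a group differed widely. In muscle the control samples held 1329, 16.3 and 397 CPM and the SN-011 samples 1617, 236 and 1368 CPM. In heart the controls held 4.32, 1.04 and 205 CPM and the SN-011 samples 0.180, 77.1 and 0.337 CPM. In stomach the controls held 57.2, 16.7 and 19.8 CPM and the SN-011 samples 30.2, 67.1 and 34.0 CPM. The range inside a tissue ran from 4.02-fold in stomach over 15.75-fold in tongue and 99.2-fold in muscle to 1144-fold in heart. In heart, control 3 and SN-011 2 held 98.0% of the sum over the 6 libraries. The narrow stomach range rests on Cidec, without which the stomach sum ran from 0.157 CPM in control 2 to 43.8 CPM in SN-011 2. In tongue the controls held 0.712, 0.554 and 1.37 CPM and the SN-011 samples 0.663, 0.384 and 6.05 CPM, so that every tongue library but SN-011 3 was close to the level of a few counts per gene.

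The groups overlapped in all 4 tissues, so a loss of attached fat after SN-011 was not seen. The mean fell only in heart, from 70.3 ± 117 to 25.9 ± 44.4 CPM (SD, n = 3 each), a ratio of 0.368, and the ratio was 9.64 without heart control 3 and 0.00368 without heart SN-011 2. In muscle the mean was 581 ± 675 CPM in controls and 1074 ± 736 CPM after SN-011, a ratio of 1.85, which was 5.20 without muscle control 1. In stomach it was 31.2 ± 22.6 against 43.7 ± 20.3 CPM (ratio 1.40, and 2.40 without stomach control 1), and in tongue 0.880 ± 0.435 against 2.37 ± 3.19 CPM (ratio 2.69, and 0.595 without tongue SN-011 3). With 3 samples against 3 the smallest p an exact permutation test can give is 0.1.

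**Figure D1:**
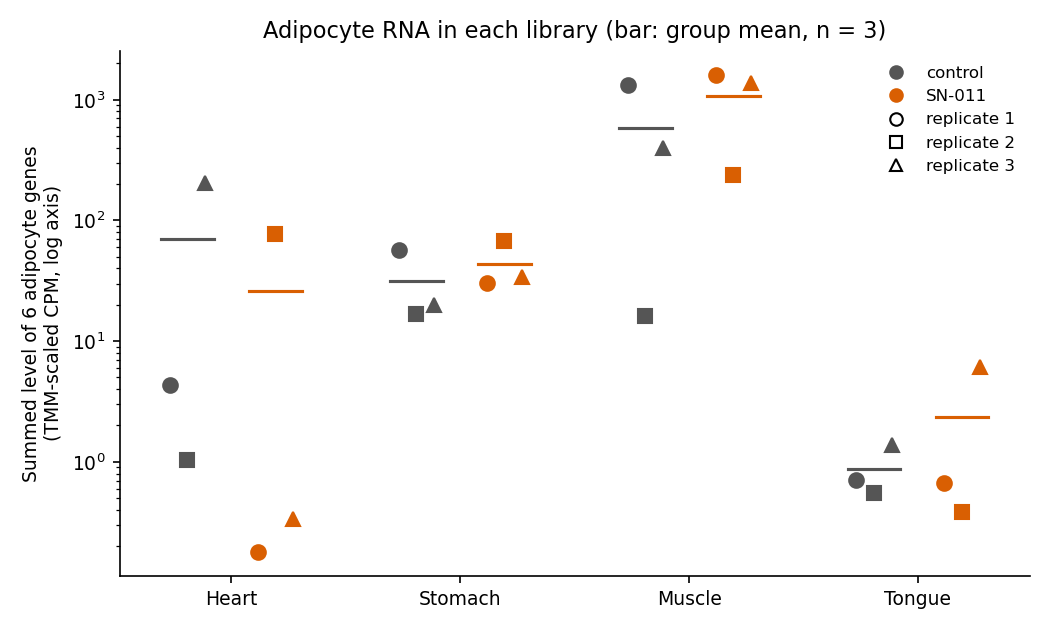
Attached fat in each of the 24 libraries, as the summed CPM of Adipoq, Plin1, Cidec, Retn, Cfd and Lep on a log axis, by tissue and treatment, with a line at each group mean. Muscle libraries run from 16.3 to 1617 CPM and tongue libraries from 0.384 to 6.05 CPM, and control and SN-011 libraries overlap in every tissue.

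The adipocyte hormone Adipoq showed the pattern in single counts. Heart control samples had 12, 0 and 337 Adipoq counts and heart SN-011 samples 1, 111 and 0. Stomach controls had 43, 0 and 51 counts and stomach SN-011 samples 37, 110 and 19. Muscle controls had 1473, 24 and 400 counts and muscle SN-011 samples 1350, 170 and 1197. Control 2 was thus the lowest control in these 3 tissues, or tied with none above it. In tongue Adipoq had 0, 1 and 2 counts in controls and 0, 0 and 13 after SN-011, at or near the limit of detection outside SN-011 3.

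Cfd followed Adipoq, and Retn did so in heart and muscle but less in stomach. Retn had 10, 0 and 223 counts in heart controls and 0, 42 and 0 after SN-011, and 956, 7 and 227 in muscle controls and 650, 74 and 677 after SN-011. In stomach Retn had 56, 0 and 58 counts in controls and 21, 32 and 14 after SN-011. Stomach SN-011 2, the stomach library highest in Adipoq, thus had less Retn than stomach controls 1 and 3. Cfd, which had the highest level per kilobase of exon of the 10 members in muscle controls (399 CPM per kb, against 39.0 for Adipoq), had 32, 2 and 3061 counts in heart controls and 1, 697 and 4 after SN-011. Its muscle counts were 9441, 91 and 3435 in controls and 8562, 1539 and 9214 after SN-011. In stomach Cfd had 185, 3 and 168 counts in controls and 248, 640 and 128 after SN-011, so the sample with almost no Adipoq had almost no Cfd as well. Tongue SN-011 3 was the highest tongue library for both genes, with 16 Retn and 45 Cfd counts.

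Lep was the lowest member per kilobase in muscle controls, at 1.05 CPM per kb, and was seen above 8 counts only in muscle. Muscle controls had 109, 0 and 15 Lep counts and muscle SN-011 samples 22, 0 and 15. Set against Adipoq in the same library, which takes out how much fat it held, there were 7.40 Lep counts per 100 Adipoq counts in control 1 (95% exact interval 6.03 to 8.99) and 3.75 in control 3 (2.08 to 6.26). The SN-011 libraries gave 1.63 (1.02 to 2.48) in SN-011 1, 0 (0 to 2.19) in SN-011 2 and 1.25 (0.699 to 2.08) in SN-011 3. The SN-011 ratios were all below both of these controls, but the interval of control 3 overlaps those of SN-011 1 and SN-011 2. Control 1, the highest, is the muscle library with Xist (3060 counts), and the part of this was not tested. Control 2, with 24 Adipoq counts and no Lep, allowed up to 16.6, and SN-011 2 is the library with counts on few genes. These intervals cover counting error only, since reads without molecular identifiers are not independent molecules. In heart control 3 the ratio was 2.37 (1.02 to 4.73), between these values.

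**Figure D2:**
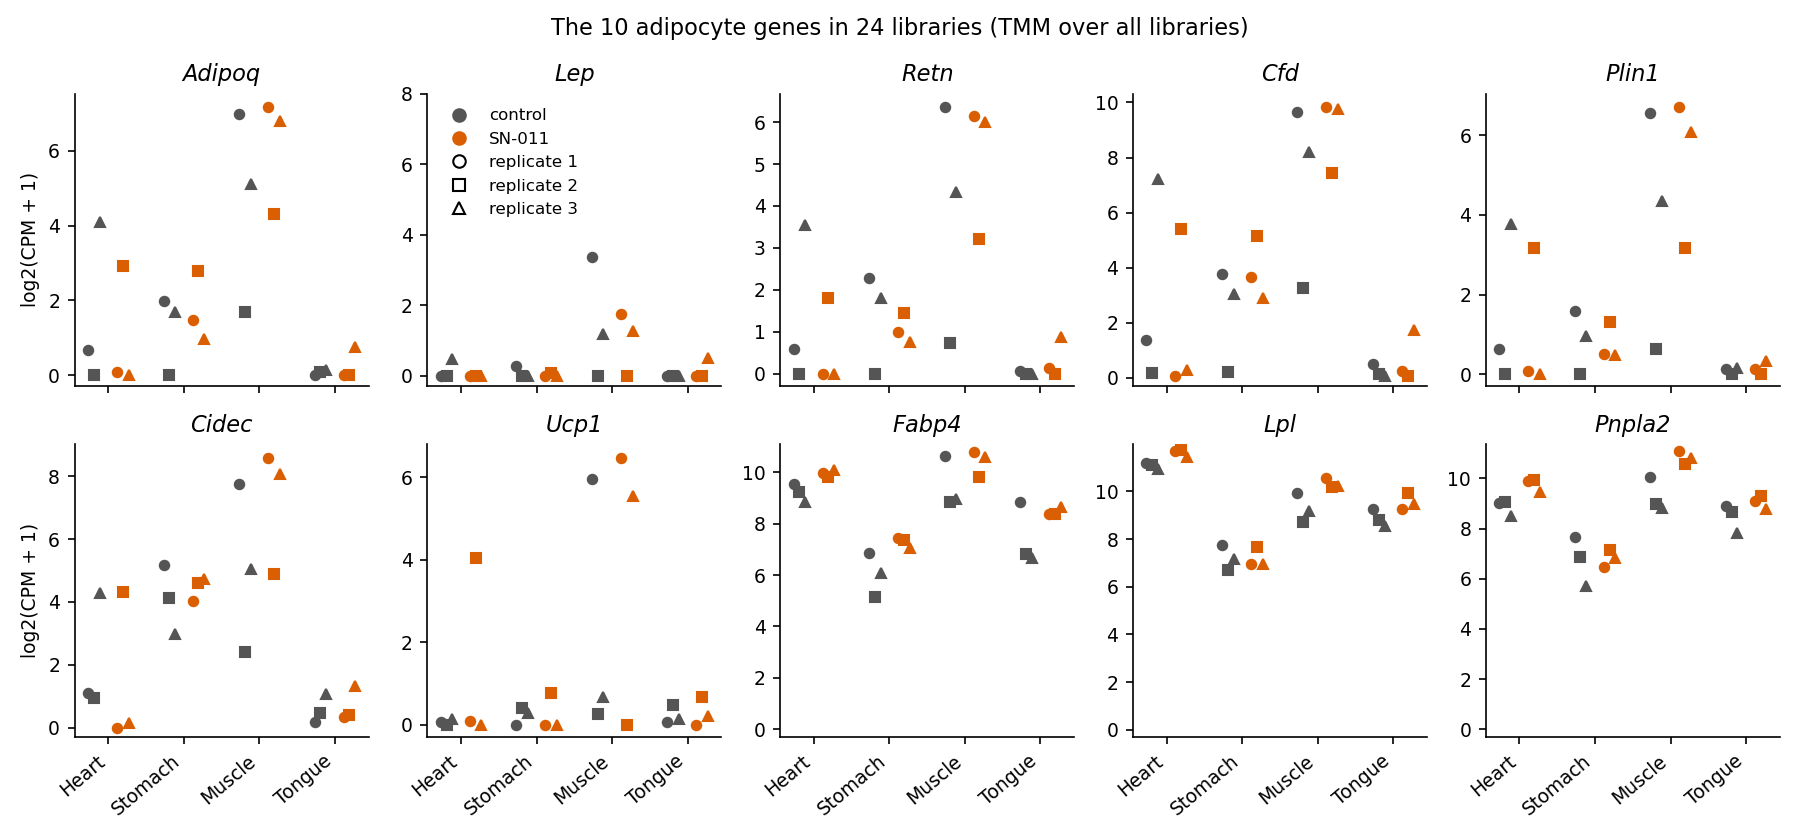
CPM of each of the 10 members in each of the 24 libraries after TMM scaling of all libraries together, shown as log2(CPM + 1) with a panel per member, colour for treatment and symbol shape for the replicate number. Adipoq, Plin1, Retn and Cfd rise and fall together in muscle and heart (Adipoq 125 CPM in muscle control 1 and 2.25 CPM in muscle control 2), whereas Fabp4, Lpl and Pnpla2 are above 30 CPM in every library.

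Of the droplet genes, Plin1 followed Adipoq in heart, muscle and stomach, and Cidec did so less in stomach. Plin1 had 11, 0 and 262 counts in heart controls and 1, 136 and 0 after SN-011, and 1086, 6 and 230 in muscle controls and 971, 71 and 714 after SN-011. Stomach held 29, 0 and 22 Plin1 counts in controls and 9, 27 and 8 after SN-011. In the 12 libraries with at least 20 Adipoq counts, Plin1 ranged from 24.3 to 123 counts per 100 Adipoq counts. Cidec had 511, 317 and 159 counts in stomach controls and 320, 430 and 509 after SN-011, and so was well detected in control 2, where Adipoq, Plin1 and Retn had 0 counts. Per 100 Adipoq counts in the same 12 libraries, Cidec reached 1188 (95% interval 870 to 1662) in stomach control 1 and 865 (614 to 1251) in stomach SN-011 1, against 268 (251 to 285) in the highest muscle library. Stomach SN-011 3, with 509 Cidec counts on 19 Adipoq counts, was just under the limit for a ratio. Stomach control 3 gave 312 (226 to 436) and stomach SN-011 2 gave 391 (316 to 486), and their intervals overlap that of heart SN-011 2 at 293 (235 to 367). Cidec therefore made up 16.6 of the 16.7 CPM of the sum in stomach control 2. With Cidec left out, the stomach sum was 11.6 ± 10.9 CPM in controls and 22.4 ± 18.8 CPM after SN-011, still overlapping.

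**Figure D3:**
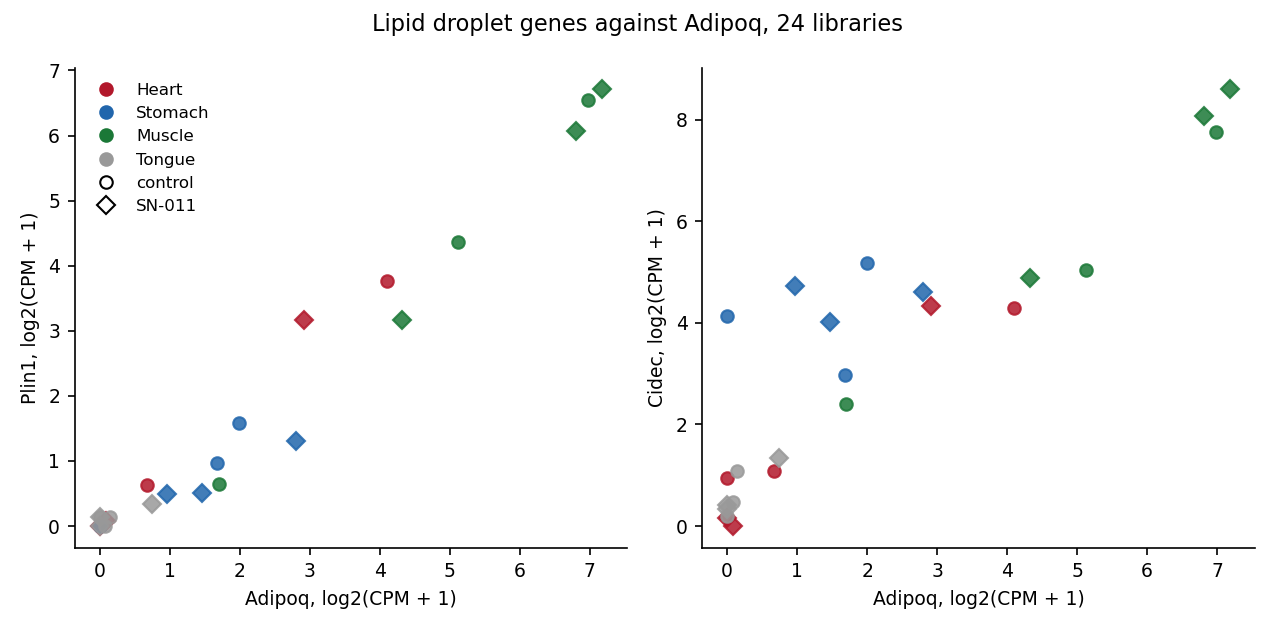
Levels of the droplet genes Plin1 and Cidec against that of Adipoq in each of the 24 libraries, all as log2(CPM + 1), with colour for tissue and symbol shape for treatment. Plin1 rises with Adipoq in heart, muscle and stomach (24.3 to 123 counts per 100 Adipoq counts). The stomach libraries lie highest for Cidec at like Adipoq levels (312 to 1188 counts per 100 Adipoq counts). Both ranges cover only libraries with at least 20 Adipoq counts. They leave out stomach SN-011 3 (509 Cidec, 19 Adipoq counts) and stomach control 2 (317 and 0).

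Ucp1 differed widely between the libraries that held fat. Heart SN-011 2 had 263 Ucp1 counts, the other 5 heart libraries 0 to 2, and heart control 3, with 337 Adipoq counts against 111 in heart SN-011 2, had 2. Per 100 Adipoq counts this was 237 Ucp1 counts in heart SN-011 2 (95% interval 189 to 299) and 0.593 (0.0716 to 2.16) in heart control 3. Elovl3, an elongase induced in brown fat, was at 2.06 CPM in heart SN-011 2 and at most 0.0614 CPM in the other heart libraries. In muscle Ucp1 had 716, 2 and 7 counts in controls and 826, 0 and 494 after SN-011. The ratio was 48.6 (44.4 to 53.2) in control 1, 61.2 (56.0 to 66.8) in SN-011 1 and 41.3 (37.1 to 45.9) in SN-011 3. It was 1.75 (0.699 to 3.64) in control 3 and 0 (0 to 2.19) in SN-011 2, the library with counts on few genes. Control 2, with 24 Adipoq counts, gave 8.33 (0.955 to 33.6). Elovl3 was likewise at 4.68, 7.68 and 4.74 CPM in the 3 muscle libraries with over 400 Ucp1 counts and at most 0.424 CPM in the other 3, and Otop1, another brown fat gene, at 4.68, 2.88 and 1.67 CPM against at most 0.763 CPM. Cidea, which is also expressed in heart and tongue, was at 52.2, 60.8 and 35.0 CPM in those 3 muscle libraries and at most 6.95 CPM in the others. Muscle libraries high in Ucp1 were thus found in both groups. Elovl3, Otop1 and Cidea are 3 of the 11 genes on the brown fat list. That list summed to 585 to 683 CPM in muscle controls and 819 to 1201 CPM after SN-011. In heart it summed to 416 to 614 CPM in controls and 703 to 849 CPM after SN-011. SN-011 lay wholly above control for 14.1% of all heart genes tested and 14.7% of all muscle genes. Heart SN-011 1 and 3 were at 703 CPM or more with 1 and 0 Ucp1 counts. The list sum thus did not divide as Ucp1 did, in heart or in muscle controls, and is not a measure of brown fat here. Stomach had at most 13 Ucp1 counts and tongue at most 11. The ratio was 11.8 (6.10 to 21.1) in stomach SN-011 2 and 9.80 (3.05 to 24.4) in stomach control 3. It was 0 in stomach control 1 (0 to 8.96) and in stomach SN-011 1 (0 to 10.5).

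**Figure D4:**
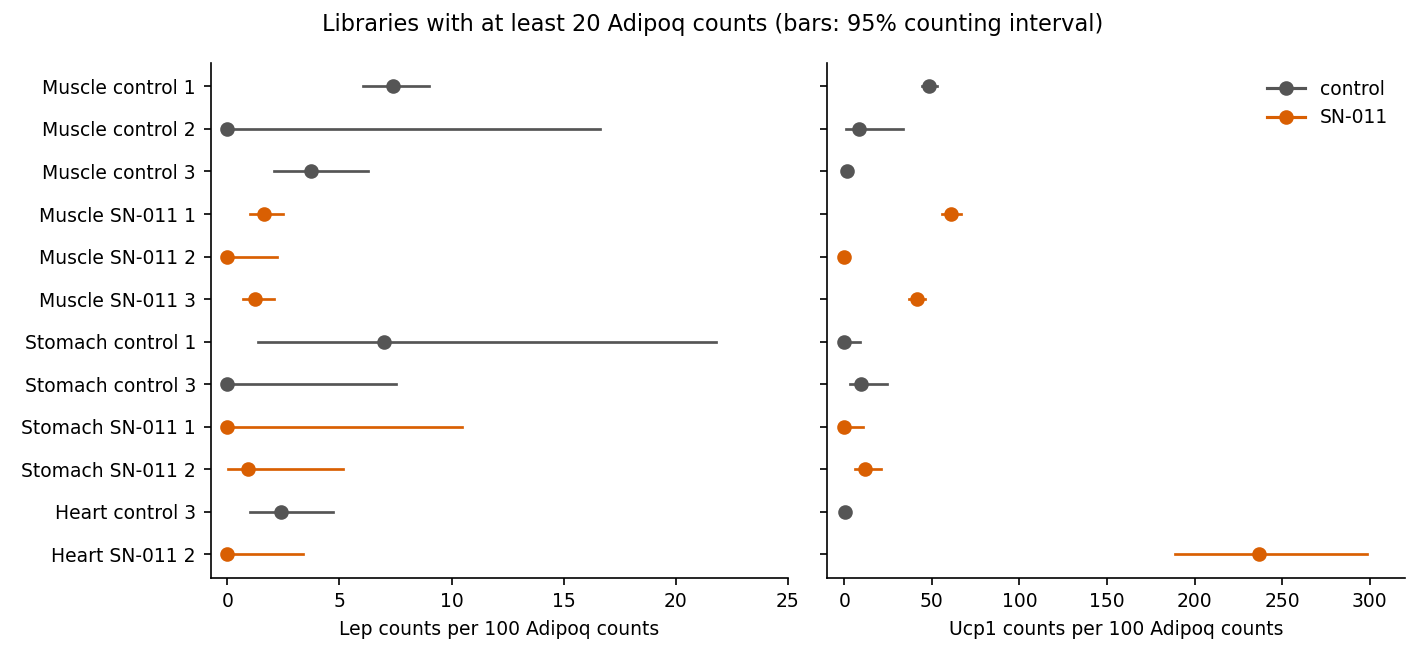
Lep and Ucp1 counts per 100 Adipoq counts in the libraries with at least 20 Adipoq counts, with 95% exact intervals for counting error. Ucp1 is near or above 40 in 4 libraries (237 in heart SN-011 2, 41.3 to 61.2 in 3 muscle libraries). It is 8.33 to 11.8 in muscle control 2, stomach control 3 and stomach SN-011 2. It is below 2 in heart control 3, muscle control 3, muscle SN-011 2, stomach control 1 and stomach SN-011 1. Lep is highest in muscle control 1 at 7.40.

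Fabp4, Lpl and Pnpla2 were abundant in every library and, in some tissues, lay above control in every SN-011 sample, but none passed the test across all genes. The values that follow are CPM after TMM scaling inside each tissue, and fold changes are log2 values from edgeR (quasi-likelihood), with p-values adjusted by the Benjamini-Hochberg method across every gene tested in the tissue. Of the 10 members, 7 passed the filter on low counts in heart, 8 in stomach, 10 in muscle and 3 in tongue. No member was called at an adjusted p of 0.05 in any tissue, where 0.848% of genes were called in heart, 0.0141% in muscle, and 0% in stomach and 0% in tongue. At an unadjusted p under 0.05 there were 3 of 7 members tested in heart (Fabp4, Lpl, Pnpla2), where 22.4% of all genes were, and 2 of 10 in muscle (Lpl, Pnpla2; 14.8%). There was 1 of 8 in stomach (Fabp4), below the 24.6% of all genes, and 1 of 3 in tongue (Lpl; 12.5%). DESeq2's Wald test called 3 members in heart (Fabp4, Lpl and Pnpla2), where it called 8.1% of all genes, and 2 in muscle (Lpl and Pnpla2; 5.61%). It called 0 in stomach, where it called 14% of all genes, and 0 in tongue (2.39%). edgeR's exact test called 3 members in heart (5.68% of all genes), 1 in muscle (Pnpla2; 3.37%), 0 in stomach (10.8%) and 0 in tongue (1.53%).

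In heart, Pnpla2 was at 579, 593 and 398 CPM in controls and at 1066, 1079 and 797 CPM after SN-011. All SN-011 samples lay above all controls, with means of 524 ± 109 and 981 ± 159 CPM (SD, n = 3 each), and the log2 fold change was 0.91 (SE 0.20, adjusted p = 0.0670). Lpl was at 2585, 2460 and 2208 CPM in heart controls and at 3730, 3797 and 3129 CPM after SN-011, a log2 fold change of 0.55 (SE 0.16, adjusted p = 0.112). Fabp4 was at 831, 682 and 510 CPM in heart controls and at 1123, 1001 and 1219 CPM after SN-011, a log2 fold change of 0.72 (SE 0.19, adjusted p = 0.0931). The groups did not overlap for any of these 3 genes, each with an exact two-sided permutation p = 0.1, the smallest possible, and SN-011 lay wholly above control for 14.1% of all heart genes tested. Beside them, the cardiomyocyte markers summed to 25774 to 36131 CPM in heart controls and 35414 to 42939 CPM after SN-011, and all 6 lay above 0 in log2 fold change (median 0.43). The endothelial markers summed to 851 to 1073 and 814 to 1017 CPM, with 4 of 6 below 0. The smooth muscle sum was wholly higher after SN-011 (2571 to 3252 against 3728 to 4187 CPM), although 4 of its 5 genes lay below 0 and only Des, which cardiomyocytes also express, above. The mesothelial sum was 75.4 to 178 CPM in heart controls and 44.5 to 76.9 CPM after SN-011, with 5 of 6 genes below 0 (median −0.97). The part of these markers in the result was not tested. The 4 restricted members tested in heart did not pass, with log2 fold changes of −1.35 for Adipoq (SE 1.69, adjusted p = 0.675), −0.71 for Plin1 (SE 1.67), −0.11 for Cidec (SE 1.57) and −1.85 for Cfd (SE 1.91). All 4 of these turned to values above 0 without heart control 3, with 2.78 for Adipoq.

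In muscle, Pnpla2 was at 659, 306 and 271 CPM in controls and at 1322, 1098 and 1089 CPM after SN-011. The means were 412 ± 214 and 1170 ± 132 CPM, 2.84-fold apart, with a log2 fold change of 1.51 (SE 0.35, adjusted p = 0.174). Lpl was at 614, 257 and 348 CPM in muscle controls and at 915, 860 and 738 CPM after SN-011, a log2 fold change of 1.04 (SE 0.32, adjusted p = 0.237). Neither gene overlapped between the groups (exact permutation p = 0.1 each), as was so for 14.7% of all muscle genes with SN-011 higher. Both genes were above all controls also in Muscle SN-011 2, the lowest of the muscle SN-011 libraries in the 6-gene sum. That library is the one with counts on few genes, and its sum (236 CPM) was above that of muscle control 2 (16.3 CPM). Without it 1103 muscle genes were called, and no member was. Skeletal muscle markers ran from 198480 to 227170 CPM in muscle controls and from 242690 to 246220 CPM after SN-011, with 5 of 6 above 0 in log2 fold change. Endothelial markers ran from 403 to 490 and from 282 to 363 CPM (5 of 6 below 0), and adipose progenitor markers from 503 to 626 and from 366 to 452 CPM (6 of 6 below 0). Smooth muscle markers were at 6488 to 6996 and at 7995 to 8168 CPM (3 of 4 tested above 0). The part of these markers was not tested. Fabp4 was at 989, 276 and 299 CPM in muscle controls and at 1093, 661 and 944 CPM after SN-011, overlapping, with a log2 fold change of 0.79 (SE 0.53, adjusted p = 0.553). The other 7 members had log2 fold changes between −1.49 (Lep, SE 1.87) and 1.43 (Cidec, SE 1.36) in muscle, with the lowest adjusted p = 0.685.

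In stomach, Fabp4 was at 135, 41.3 and 83.5 CPM in controls and at 213, 199 and 161 CPM after SN-011. The groups did not overlap (exact permutation p = 0.1), as was so with SN-011 higher for 17.8% of all stomach genes, and the log2 fold change was 1.14 (SE 0.41, adjusted p = 0.144). The stomach endothelial markers summed to 56.6 to 87.9 CPM in controls and 90.8 to 126 CPM after SN-011, also apart, with 6 of 6 above 0, and the macrophage markers to 246 to 393 and 158 to 615 CPM. Smooth muscle markers ran from 946 to 5767 CPM in stomach controls and from 4263 to 8448 CPM after SN-011, with 5 of 5 above 0 in log2 fold change. Tongue-type squamous epithelium markers were at 66.7 to 155 CPM in controls and 339 to 794 CPM after SN-011. The mesothelial sum was lower after SN-011 (2413 to 7280 against 541 to 2952 CPM) through Krt19, which gastric epithelium also expresses, while the other 5 of its 6 genes lay above 0 and the median was 1.42. The part of these markers in the result was not tested. Lpl was at 251, 122 and 175 CPM in stomach controls and at 152, 246 and 153 CPM after SN-011, and Pnpla2 at 233, 137 and 63.0 CPM and at 108, 171 and 136 CPM. The log2 fold changes were 0.00 for Lpl (SE 0.35, adjusted p = 0.996) and −0.06 for Pnpla2 (SE 0.45, adjusted p = 0.947). The other 5 members tested in stomach lay between −0.85 (Retn, SE 1.17) and 1.43 (Cfd, SE 1.06).

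In tongue all 3 genes tested overlapped between the groups. Lpl was at 737, 526 and 446 CPM in controls and at 719, 1149 and 855 CPM after SN-011, a log2 fold change of 0.67 (SE 0.25, adjusted p = 0.366). Pnpla2 was at 567, 466 and 268 CPM in controls and at 641, 736 and 527 CPM after SN-011 (log2 fold change 0.55, SE 0.28, adjusted p = 0.450). Fabp4 was at 552, 130 and 119 CPM in controls and at 390, 395 and 484 CPM after SN-011 (log2 fold change 0.66, SE 0.57, adjusted p = 0.627). Control 1 was above 3 of 3 SN-011 samples for Fabp4 and the other controls below them, and without tongue control 1 Fabp4 and Lpl were called among 2135 genes in all. In the tongue 9.39% of all genes tested had SN-011 wholly above control, and no member did.

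**Figure D5:**
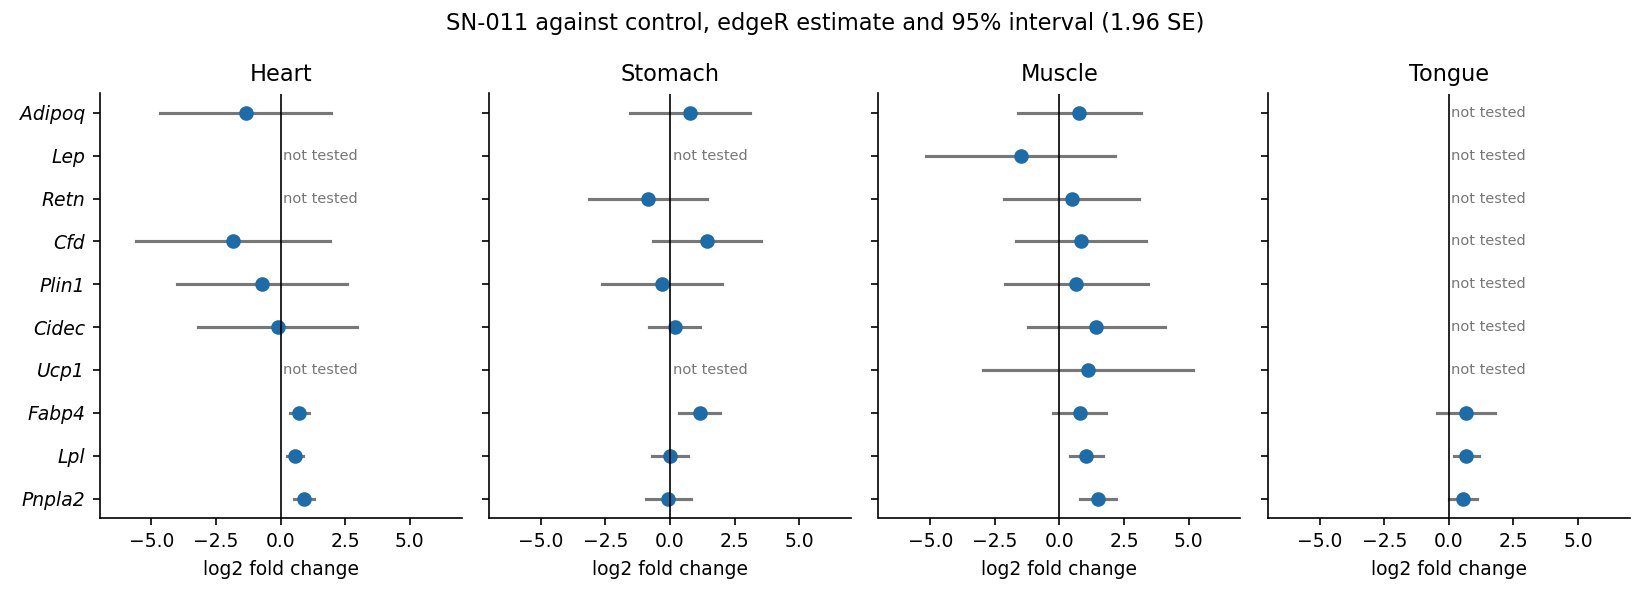
Log2 fold change of SN-011 against control for each member in each tissue from edgeR's quasi-likelihood test, with 95% intervals, for the members that passed the filter on low counts. The intervals of Fabp4, Lpl and Pnpla2 are narrow (SE 0.16 to 0.57), with heart and muscle values of 0.55 to 1.51, whereas the restricted members have intervals that span 0 in every tissue where they were tested.

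The difference of the SN-011 effect between tissues was tested for each pair in a joint model of all 24 samples, and no member was called. Among all genes 2.01% were called between heart and stomach, 0.00507% in the pair of heart and muscle, 0% in that of heart and tongue, 6.95% for stomach against muscle, 0.821% for stomach against tongue and 0.0355% for muscle against tongue. At an unadjusted p under 0.05 there were 2 members, Lpl and Pnpla2, in stomach against muscle, where 24.1% of all genes were. There were 0 in the other 5 pairs, where the share of all genes was 17% (heart and stomach), 6.6% (heart and muscle), 2.83% (heart and tongue), 15.4% (stomach and tongue) and 8.1% (muscle and tongue). In stomach against muscle DESeq2 called 1 member, Pnpla2, and 14.6% of all genes, and with the replicate number of controls and SN-011 samples taken as a mouse across tissues (a block chosen after seeing the data) edgeR also called Pnpla2, and 6.54% of all genes. The labels do not say that a number marks a mouse, but same-numbered controls of different tissues deviated together with a mean correlation of 0.234, against −0.114 for other numbers. Among SN-011 samples these means were only 0.0641 and −0.0312. Deviations were taken from the mean of each group of 3, so the means for same and other numbers are not independent.

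Among control samples Lpl and Fabp4 were each called in 5 of the 6 pairs of tissues and Pnpla2 in 3. Levels here are CPM after TMM scaling of all libraries together. Lpl was at 2168 ± 177 CPM in heart, 667 ± 291 CPM in muscle, 481 ± 122 CPM in tongue and 153 ± 57.5 CPM in stomach (SD, n = 3 each). Neighbours in that order differed, by log2 1.70 for heart over muscle (SE 0.32, adjusted p = 3.211e-04) and 1.65 for tongue over stomach (adjusted p = 3.825e-04), except muscle and tongue (log2 0.47, SE 0.31, adjusted p = 0.251). Pnpla2 was at 675 ± 337 CPM in muscle, 469 ± 96.9 CPM in heart, 366 ± 127 CPM in tongue and 122 ± 74.6 CPM in stomach, and only the last step differed (adjusted p = 0.00367). Fabp4 was at 852 ± 645 CPM in muscle, 605 ± 146 CPM in heart, 224 ± 205 CPM in tongue and 72.6 ± 40.8 CPM in stomach. Fabp4 differed between heart and tongue (log2 1.43, SE 0.53, adjusted p = 0.0479) and between tongue and stomach (adjusted p = 0.0212), and not between muscle and heart (adjusted p = 0.506).

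Among controls the 6 members of the fat sum had their highest mean in muscle and their lowest in tongue, whereas Ucp1 was highest in muscle (20.6 CPM) and lowest in heart (0.0484 CPM, against 0.180 CPM in tongue). Adipoq was at 53.9 ± 64.0 CPM in muscle, 5.59 ± 9.18 CPM in heart, 1.73 ± 1.54 CPM in stomach and 0.0537 ± 0.0529 CPM in tongue, and no neighbours in that order differed (adjusted p from 0.122 to 0.411). Cidec was at 84.1 ± 115 CPM in muscle, 19.6 ± 14.5 CPM in stomach, 6.88 ± 10.1 CPM in heart and 0.547 ± 0.503 CPM in tongue, and of all 10 it alone was called higher in stomach than in tongue (adjusted p = 0.0262). The number of members called was 3 between heart and stomach (42.5% of all genes), 2 between heart and muscle (33.7%), 5 for heart against tongue (29.1%), 9 for stomach against muscle (51.6%), 4 for stomach against tongue (36.9%) and 8 for muscle against tongue (38.1%). Stomach was the lower tissue for all 9 members called against muscle, all but Cidec (adjusted p = 0.217), and muscle the higher for all 8 called against tongue. Heart was below muscle for Ucp1 (adjusted p = 0.0179), which rests on the 716 counts of muscle control 1, and above tongue for Adipoq, Retn and Cfd (adjusted p = 0.0461, 0.0403 and 0.0250), which rest on heart control 3. Between heart and tongue only Lpl was called without that library, and also without tongue control 2 or 3, and Fabp4 and Lpl without tongue control 1. The 9 calls between stomach and muscle were 3 (Fabp4, Lpl and Pnpla2) without muscle control 1, stomach control 2 or stomach control 3. Without muscle control 1 the 8 calls between muscle and tongue were 5, without tongue control 1 the 4 between stomach and tongue were 2, and without heart control 3 the 2 between heart and muscle were 7. The latter were 4 without muscle control 2 or Muscle SN-011 2, and 1 (Lpl) without heart control 1, heart control 2 or muscle control 1. Leaving out any tongue SN-011 sample, which adds to the shared spread, left 3 members called between heart and tongue (Cfd, Lpl and Retn). The genes called in all moved too when a library was left out. They ran from 5114 to 8585 for heart against muscle and from 4053 to 5516 for heart against tongue. The ranges were 8923 to 11994 for stomach against muscle, 6110 to 7426 for stomach against tongue and 6234 to 9357 for muscle against tongue. TMM and total-count scaling differ by 0.84 in log2 between heart and muscle, and with the total count Fabp4 and Pnpla2 turned from lower to higher in heart (0.32 and 0.30), neither called.

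Pathways that work in adipocytes, but not only there, were read from 9 lists of 65 genes, chosen with earlier results of these data known. Heart SN-011 1 and 3 held only 0.180 and 0.337 CPM of the 6-gene fat sum. Which cells made the RNA of the list genes was not tested. In heart 59 were tested, and 36 had a log2 fold change above 0, as did 48.6% of all heart genes. At an adjusted p under 0.05, 4 were called higher and 1 lower, where 0.848% of all heart genes were called. At an unadjusted p under 0.05 there were 25 (42.4%), against 22.4% of all heart genes. Klf15, a transcription factor of fat and muscle metabolism, rose by a log2 fold change of 1.25 (SE 0.15, adjusted p = 0.0182). Mlxipl (ChREBP), which drives lipid synthesis from sugar, rose by 0.83 (SE 0.13, adjusted p = 0.0332), and Lpin1, a phosphatidate phosphatase on the path to triglyceride, by 0.82 (SE 0.14, adjusted p = 0.0383). Agt, which encodes angiotensinogen, rose by 1.60 (SE 0.20, adjusted p = 0.0222), and Apln, which encodes the peptide apelin, was the gene that fell, by 1.38 (SE 0.25, adjusted p = 0.0489). By list these were 2 of 7 regulators, 1 of 13 lipid synthesis genes, and 2 of 6 other adipokines, with medians over the lists of 0.35, −0.04 and −0.22, beside −0.01 over all heart genes. The 5 genes kept their direction under every alternative run, but all 5 calls were lost without any 1 of the 3 heart SN-011 samples (adjusted p from 0.0651 to 0.227) and in the joint fit of all 24 samples (0.174 to 0.786). Without heart control 3 Agt, Apln and Lpin1 were lost, without heart control 1 Apln and Mlxipl, and with the total count alone Mlxipl (adjusted p = 0.0553).

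No gene of the other 6 lists was called in heart. The 7 other lipid droplet genes had a median log2 fold change of 0.62, 5 of them at an unadjusted p under 0.05, led by Plin3 (0.69, SE 0.14, adjusted p = 0.0566). All 7 fatty acid uptake genes lay above 0 (median 0.39), as did 3 of 4 adipokine receptors (median 0.10) and 4 of 5 lipolysis genes (median 0.20). The 8 brown fat genes tested had a median of 0.52, while the 5 other adipocyte markers tested had a median of −0.33.

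In the other tissues no gene of the 9 lists was called. The genes at an unadjusted p under 0.05 were 19 of 61 tested in stomach (31.1%, against 24.6% of all genes), 14 of 65 in muscle (21.5% against 14.8%) and 13 of 61 in tongue (21.3% against 12.5%). The median log2 fold change over these genes was 0.36 in stomach, 0.20 in muscle and 0.06 in tongue, beside 0.00, −0.08 and −0.01 over all genes. Lpin1 was at 1.39 in stomach (SE 0.32, adjusted p = 0.0753), 0.90 in muscle (SE 0.25, adjusted p = 0.216) and 0.87 in tongue (SE 0.20, adjusted p = 0.268). Klf15 was at 0.96 in stomach (SE 0.29), 1.42 in muscle (SE 0.27) and 0.81 in tongue (SE 0.34), none called. Angptl4, which inhibits the Lpl enzyme, was at 2.74 in stomach (SE 0.41, adjusted p = 0.0618), where Lpl itself was at 0.00. Agt was at 1.80 in muscle (SE 0.20, adjusted p = 0.0764) and 2.57 in tongue (SE 0.38, adjusted p = 0.256).

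The genes most like Adipoq across the 24 libraries were ranked by Pearson's r of log2(CPM + 1), each value taken as a deviation from its tissue's mean, over 15829 genes. The points share their libraries, and the muscle and heart libraries that hold fat weigh most. Of the members, Plin1 reached 0.976, Cfd 0.968, Retn 0.965 and Cidec 0.905, followed by Ucp1 at 0.684, Lpl at 0.481, Fabp4 at 0.367 and Pnpla2 at 0.264. Outside the members Scd1, the stearoyl-CoA desaturase, came highest at 0.956, then Cyp2e1 at 0.856, Adrb3, Pck1 and Cdo1 at 0.811 each, Arxes2 at 0.810, Elovl6 at 0.809, Slc7a10 at 0.806, Fasn at 0.793 and Car5b at 0.765. After TMM scaling of all libraries, Scd1 was at 1342, 18.7 and 408 CPM in muscle controls and at 1451, 140 and 1122 CPM after SN-011, and at 19.3, 8.66 and 289 CPM in heart controls and at 11.2, 124 and 4.72 CPM after SN-011. In muscle and heart the libraries that were high in Scd1 were those high in Adipoq. This did not hold elsewhere. In stomach Scd1 was highest in SN-011 1 (70.6 CPM), with Adipoq at 1.76 CPM, and was at 57.2 CPM in SN-011 2, the library highest in Adipoq. In tongue Scd1 was highest in SN-011 1 (30.6 CPM), where Adipoq had 0 counts.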

How the data were processed

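RNA was measured by sequencing of polyadenylated cDNA in 24 samples of Trex1-KO mice. The deposited values are read counts per Ensembl gene made by the authors, whose processing notes name HISAT2, HTSeq and the mm10 build with no versions; the study's methods name featureCounts in place of HTSeq, and which of them made the counts is not given in the sources used here. The labels do not tie tissues to mice. Gene names, exon lengths and coordinates were taken from GENCODE M21 (54495 of 54532 identifiers matched), and promoter windows from RefSeq on GRCm38.p6.

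Counts were tested with edgeR 4.0.16 (R 4.3.3) in its quasi-likelihood form, with TMM scaling, filterByExpr (minimum count 10, minimum total 15) and Benjamini-Hochberg adjustment over all genes at 0.05. SN-011 was compared with control inside each tissue from its 6 samples. Tissue pairs among controls and the difference of the SN-011 effect between tissues came from 1 model of all 24 samples, in which p-values treat the tissues as independent samples. SE is the log2 fold change divided by the square root of F, and a 95% interval is 1.96 SE. This normal approximation is narrower than the F test implies, so an interval that leaves out 0 is not a call. The SN-011 comparisons were also computed with DESeq2 1.42.0 and edgeR's exact test. The test scripts were tested on simulated counts. Fitted fold changes of genes at 0 in whole groups depend on the prior count of 0.125 and are not given as bounds.

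All 10 members were described in every comparison. From each pathway list, genes called after SN-011 in any tissue were named (up to 4 per list and tissue) or else those with the smallest p, and the 10 genes with at least 1 CPM on average most like Adipoq were named. Members and lists were chosen with earlier results of these data known. Alternatives were other scaling, no filter or at least 1 CPM in 3 samples, the replicate block, a joint fit and each replicate left out. A block for the mouse across tissues and the fat sum without Cidec were added after seeing the data.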

Additional observations from a re-analysis of the deposited data

How the results depend on the processing

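The number of members called after SN-011 depended on the test. In heart it was 4 with no filter on low counts (Fabp4, Pnpla2, Retn and Ucp1), 3 with DESeq2's Wald test, 3 with edgeR's exact test and 0 to 1 with a replicate left out (Pnpla2, without heart control 2). The genes called in all moved with it, from 137 to 1888, 1308, 918 and 787. In muscle it was 2 with DESeq2 (797 genes in all), 1 with the exact test (479) and 0 to 1 with a replicate left out (Pnpla2, without control 1, of 68), and in tongue 0 to 2 (2 of 2135). For stomach against muscle the difference of the effect was called for 1 member, Pnpla2, with DESeq2, for 1 with a mouse block and for 0 to 1 with a replicate left out. Among controls, heart against muscle gave 4 members with no filter, 1 with the mouse block and 1 to 7 with a replicate left out (7 without heart control 3). The left-out ranges were 1 to 5 for heart against tongue, 3 to 9 for stomach against muscle, 2 to 4 for stomach against tongue and 5 to 8 for muscle against tongue. Over all genes, heart against muscle gave 5114 to 8585 calls, the fewest without heart control 3. Heart against tongue gave 4053 to 5516 and stomach against muscle 8923 to 11994. Stomach against tongue gave 6110 to 7426 and muscle against tongue 6234 to 9357. The cause of these changes was not tested.

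With the replicate number as a block, 1 member (Pnpla2) of 242 genes was called in heart and 2 (Fabp4 and Lpl) for heart against tongue, and Pnpla2 in stomach was at 0.12. Same-numbered control and SN-011 samples deviated together with a mean correlation of −0.02 in heart, 0.06 in stomach, 0.04 in muscle and −0.26 in tongue, so the samples share only a number.

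Values near 0 changed sign. Lpl in stomach was at −0.031 with DESeq2 size factors, −0.0309 with DESeq2 and −0.0346 in the joint fit, and Pnpla2 in stomach at 0.21 with the total count alone. The total count also gave 0.32 for Fabp4 and 0.30 for Pnpla2 in heart against muscle, and −0.34 for Lpl in muscle against tongue. With a replicate left out, log2 fold changes in heart ran from −7.28 to 2.78 for Adipoq, −6.93 to 3.19 for Plin1, −6.73 to 2.63 for Cidec and −8.34 to 3.94 for Cfd. In stomach they ran from −0.31 to 1.33 for Adipoq, −1.19 to 0.62 for Plin1, −0.23 to 0.86 for Cidec, −0.43 to 0.44 for Pnpla2 and −0.28 to 0.28 for Lpl, and in muscle from −2.30 to 0.99 for Lep and −0.10 to 2.27 for Retn. Fabp4 in heart against muscle ran from −0.81 to 0.33, and the difference of the Lpl effect between heart and tongue reached 0.0805. The SN-011 mean of the fat sum as a ratio of the control mean ran from 0.00368 to 9.64 in heart, 1.03 to 2.40 in stomach, 1.24 to 5.20 in muscle and 0.595 to 3.81 in tongue, where it was 2.19 without Cfd and 5.00 without Cidec. Counts under about 20 in heart, stomach and tongue limit every statement on single restricted members there.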
